A study of Mus musculus with 18 samples.

Results

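RNA of quadriceps myofibres was compared between 2 regimens of prednisone, a synthetic glucocorticoid, in female mice. The 6 libraries of these groups, 3 per regimen, were chosen by their labels from the 18 libraries of the series, and every one of the 13226 genes with at least 10 counts in at least 3 of the 6 libraries was tested, of 43430 genes counted. All mice were C57BL/6 (C57BL/6J in the study's methods) and 10 weeks old at the start. The daily group received 1 mg/kg prednisone on 7 days per week for 4 weeks, and the weekly group received the same dose on 1 day per week, with vehicle on the other days. Female vehicle mice and the male groups, treated in the same way, served as further reference. Weekly mice had their last prednisone injection 2 days before collection, by the study's methods. The time from the last daily dose to collection is not given in the sources used here. The number of doses and the time since the last dose therefore cannot be told apart. Myofibres were the fraction of the collagenase-digested muscle that a strainer retained, so RNA of other cells of the muscle can be present. Each library is 1 labelled sample, while the meaning of the shared replicate numbers is not labelled.

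Prednisone acts after conversion to prednisolone, which binds the glucocorticoid receptor, a transcription factor that moves to the nucleus and raises or lowers its target genes. Glucocorticoids are known in muscle for inducing ubiquitin ligases of protein breakdown, for shifting fuel use, and for resetting the circadian clock, a feedback loop in which activators (Arntl, Clock, Npas2) drive their own repressors (Per, Cry and Nr1d genes). They also act on immune cells and fat, which lie between the fibres of a muscle.

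The libraries had the transcripts of fast muscle, and single libraries stood apart. Total counts lay between 10962790 and 14686654, and the 10 most abundant genes took 28.2% to 43.6% of them. The summed level of 10 myofibre markers was 93700, 56700 and 63200 CPM (count level relative to library size, after TMM scaling) in daily replicates 1, 2 and 3 and 81200, 54800 and 53900 CPM in the weekly ones, and all 10 were tested. Slow-fibre genes reached 2320 CPM in weekly replicate 1 and 118 to 241 CPM in the other 5 libraries. Mitochondrially encoded genes took 36.4% of the counts in weekly replicate 2 and 11.7% to 20.3% in the others. The summed adipocyte markers ranged from 1760 CPM in weekly replicate 2 to 8530 CPM in weekly replicate 3. Of 11 neutrophil and lymphocyte markers 0 passed the filter, and their sum was at most 3.01 CPM. Xist was at 84.4 to 115 CPM in the 6 libraries, matching the female label.

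**Figure D1:**
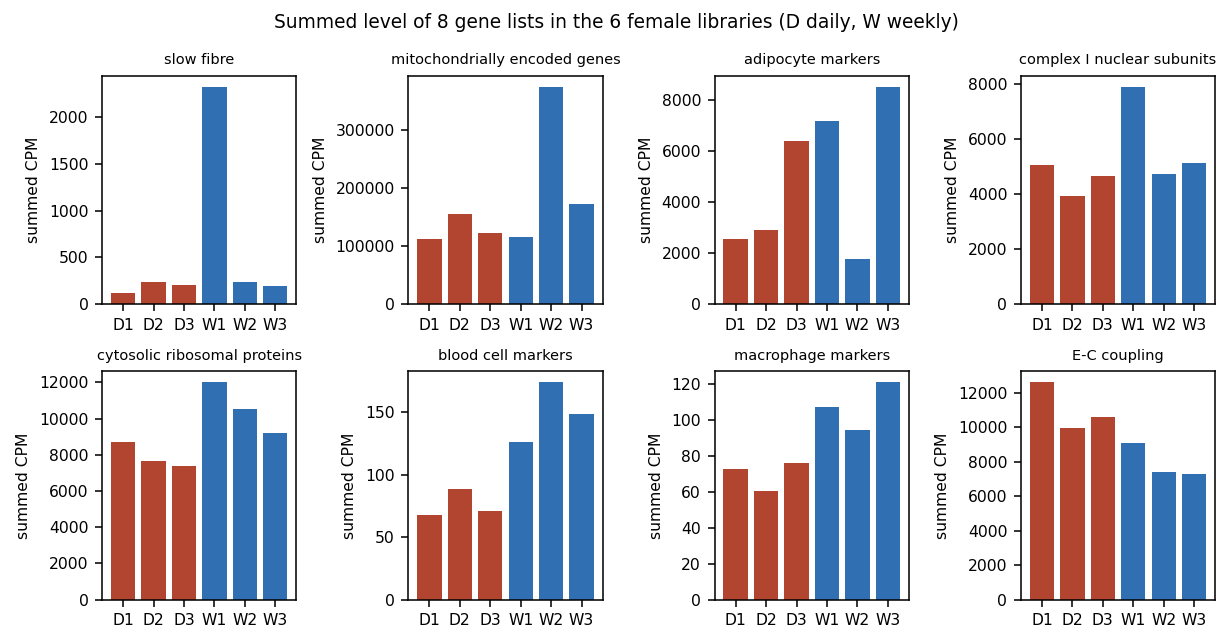
Bars give the summed CPM (vertical axis, from 0) of the members of 8 gene lists in the 3 daily (D1 to D3) and 3 weekly (W1 to W3) female libraries, 1 bar per library. The slow-fibre bar of W1 (2320 CPM) and the mitochondrially encoded bar of W2 (374000 CPM) stand above all others of their panel, while the blood cell, macrophage and cytosolic ribosomal panels show every daily bar under every weekly bar.

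By the test across all genes, 0 of 13226 genes differed between daily and weekly prednisone at an adjusted p under 0.05 (edgeR quasi-likelihood fit of all 18 libraries, 0% called). The smallest adjusted p was 0.05002 and was shared by 16 genes, 446 genes were under 0.1, and 2366 genes had an unadjusted p under 0.05. Of these, 1208 were higher in daily (9.13% of genes tested) and 1158 were lower (8.76%). All 3 daily libraries lay above all 3 weekly libraries for 10% of the genes and below them for 7.36%. The median log2 difference of all tested genes was -0.04, with a median standard error of 0.22 and a biological coefficient of variation of 0.223. In females, the deviations from the group means of daily and weekly libraries with the same replicate number correlated across genes (r = 0.54, 0.53 and 0.49). Female pairs with unlike numbers had r of -0.59 to 0.13. In males the same-numbered values were 0.13, -0.32 and 0.24. A fit with the replicate number as a block passed 507 genes, 288 higher in daily (2.18%) and 219 lower (1.66%), with a smallest adjusted p of 0.0206. The same block fitted on the compared groups alone passed 2 genes. DESeq2 called 554 genes without the block, of which 402 were among the 507. The blocked count rests on all 3 pairs, since 14, 0 and 1 genes passed with pair 1, 2 or 3 left out. Without weekly replicate 1, the library with slow-fibre transcripts, edgeR called 293 genes with no block, 184 higher (1.39%) and 109 lower (0.824%). In what follows "called" refers to the blocked fit of all 18 libraries, values and log2 differences (daily minus weekly, ± SE, 3 libraries per group) are from the fit without the block, and a gene described only by its values did not pass that fit. The planned test had no block and passed 0 genes. The block was taken up because same-numbered libraries correlated in these same data, so the calls are those of an alternative fit. List counts are to be read beside the shares over all genes, 2.18% called higher and 1.66% called lower.

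**Figure D2:**
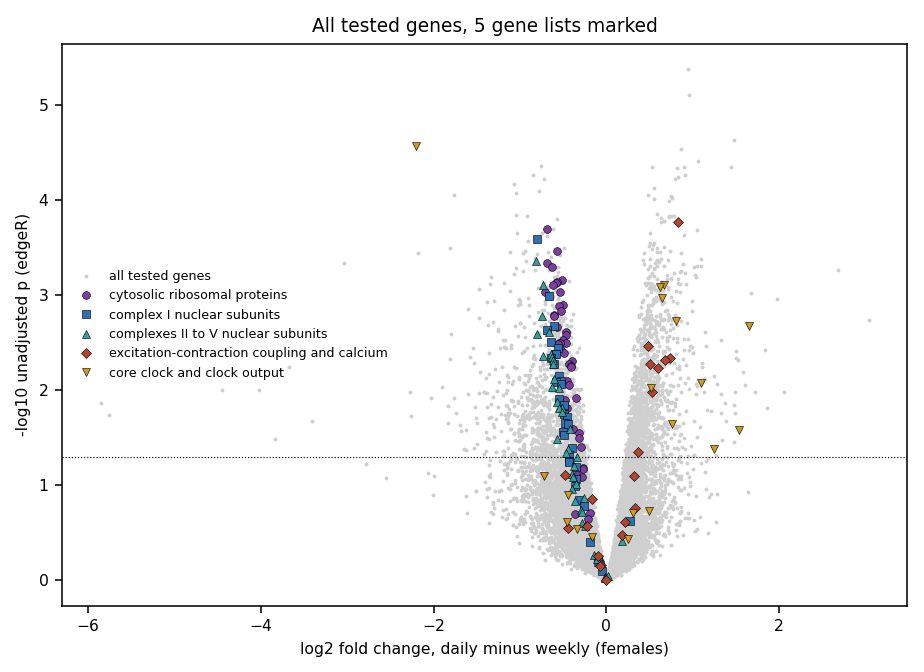
Each point is 1 of the 13226 tested genes, with the log2 difference of daily minus weekly females on the horizontal axis and -log10 of the unadjusted edgeR p on the vertical axis. The dotted line marks the unadjusted threshold. Cytosolic ribosomal and respiratory chain genes lie left of 0, excitation-contraction coupling genes reach furthest up on the right among the 5 marked lists, and the clock list reaches both sides, with Npas2 at -2.20.

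The genes with the smallest p among those higher in daily were a growth factor receptor antagonist, a transcriptional co-factor and a muscle kinase. Lrig1, which dampens signalling of ErbB receptors, was at 110.4, 97.8 and 85.7 CPM in daily replicates 1 to 3 and at 49.6, 50.7 and 52.8 CPM in the weekly ones. All daily values lay above all weekly values, with a log2 difference of 0.94 ± 0.14 (edgeR adjusted p = 0.05002, 0.0206 with the block). Gse1, a coiled-coil protein found in histone deacetylase complexes, was at 18.4, 20.4 and 16.1 CPM in daily and 7.48, 9.57 and 11.2 CPM in weekly libraries, 1.95-fold higher in daily (log2 difference 0.96 ± 0.15). Mylk4, a myosin light chain kinase family member of striated muscle, had the widest separation, at 782, 922 and 1003 CPM in daily and 351, 323 and 302 CPM in weekly libraries. That is a log2 difference of 1.47 ± 0.25 or 2.77-fold. Female vehicle libraries were at 222, 259 and 516 CPM, all below the daily ones and none within the weekly range. Their mean was 332 CPM, beside 325 CPM in weekly libraries. The female difference in Lrig1, Gse1 and Mylk4 passed with the block, with an adjusted p of 0.0206 for each (edgeR).

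Lrig1 lies on chromosome 6 (94604529-94700158), Gse1 on chromosome 8 (120230536-120581390), Mylk4 on chromosome 13 (32700827-32783954) and Npas2, the lower gene with the smallest p, on chromosome 1 (39193731-39363236), in mm10 coordinates of the count table. For these 4 genes, which had the smallest p among the named genes, the 250 bases before a RefSeq start (GRCm38.p6, the assembly of mm10) are shown. They are written 5′ to 3′ on the gene's strand, with matches to any of 4 motifs in capitals. The Lrig1 window is chr6:94700146-94700395 (minus strand), that of Gse1 chr8:120488616-120488865 (plus), that of Mylk4 chr13:32783965-32784214 (minus) and that of Npas2 chr1:39194022-39194271 (plus). For Gse1 the window is the most upstream of 3 in RefSeq and lies 258330 bases inside the gene as counted. The RefSeq start of Npas2 lies 541 bases inside the gene as counted, and its window lies inside the gene too. Neither of these windows covers the sequence before the gene as counted.
Lrig1: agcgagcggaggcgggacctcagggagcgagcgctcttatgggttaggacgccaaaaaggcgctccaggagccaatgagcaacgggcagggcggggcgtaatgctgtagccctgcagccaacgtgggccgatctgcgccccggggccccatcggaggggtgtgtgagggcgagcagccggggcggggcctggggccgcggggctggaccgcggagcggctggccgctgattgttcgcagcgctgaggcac
Gse1: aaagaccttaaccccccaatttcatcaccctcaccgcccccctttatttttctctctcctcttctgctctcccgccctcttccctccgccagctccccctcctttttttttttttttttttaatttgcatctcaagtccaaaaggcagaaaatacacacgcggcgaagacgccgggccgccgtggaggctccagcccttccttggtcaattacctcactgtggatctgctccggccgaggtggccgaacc
Mylk4: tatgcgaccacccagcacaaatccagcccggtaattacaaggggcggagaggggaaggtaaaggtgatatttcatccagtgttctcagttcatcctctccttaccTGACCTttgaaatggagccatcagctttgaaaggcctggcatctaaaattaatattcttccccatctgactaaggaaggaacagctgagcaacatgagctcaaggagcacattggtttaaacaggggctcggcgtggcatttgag
Npas2: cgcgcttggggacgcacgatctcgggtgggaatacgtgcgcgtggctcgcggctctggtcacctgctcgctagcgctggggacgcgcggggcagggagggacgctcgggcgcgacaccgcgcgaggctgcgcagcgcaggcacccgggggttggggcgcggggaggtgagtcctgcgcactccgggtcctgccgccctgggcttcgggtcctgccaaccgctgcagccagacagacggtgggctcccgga
The motifs, searched on both strands, were the E-box CACGTG of clock activators, the D-box TTATGTAA, the nuclear receptor half-site AGGTCA and the glucocorticoid response element core ACANNNTGT. Of 32851 promoter windows of this length, 6.02% hold the E-box, 0.819% the D-box, 14% the half-site and 5.84% the response element core. The Mylk4 window holds 1 half-site, written TGACCT on this strand, and the other 3 windows hold none of the 4 motifs.

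The other 9 of the 12 named genes higher in daily with the smallest p had log2 differences of 0.48 to 0.91, all with daily above weekly in every library. Scn4a, the voltage-gated sodium channel of skeletal muscle, was at 514, 415 and 432 CPM in daily and 281, 209 and 239 CPM in weekly libraries (log2 difference 0.90 ± 0.16, edgeR adjusted p = 0.05002, 0.0206 with the block). Rest, a repressor of neuronal genes, was at 11.7, 10.9 and 10.4 CPM against 6.41, 6.22 and 6.15 CPM. Rbbp6, an RNA processing and ubiquitin ligase protein, differed by 0.86 ± 0.15, Dhx15, a splicing helicase, by 0.53 ± 0.10, Tut4, which adds uridines to RNA ends, by 0.91 ± 0.17, and Elf2, an ETS transcription factor, by 0.48 ± 0.09. The remaining 3 were Mpp5, a cell polarity scaffold (0.82 ± 0.15), Klhl33, a kelch family protein (0.80 ± 0.15), and Kidins220, a membrane scaffold of neurotrophin signalling (0.55 ± 0.10). All 12 were called with the block. With trends of transcript length and GC content removed as well, all but Dhx15 passed (blocked edgeR adjusted p = 0.0791 for Dhx15).

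**Figure D3:**
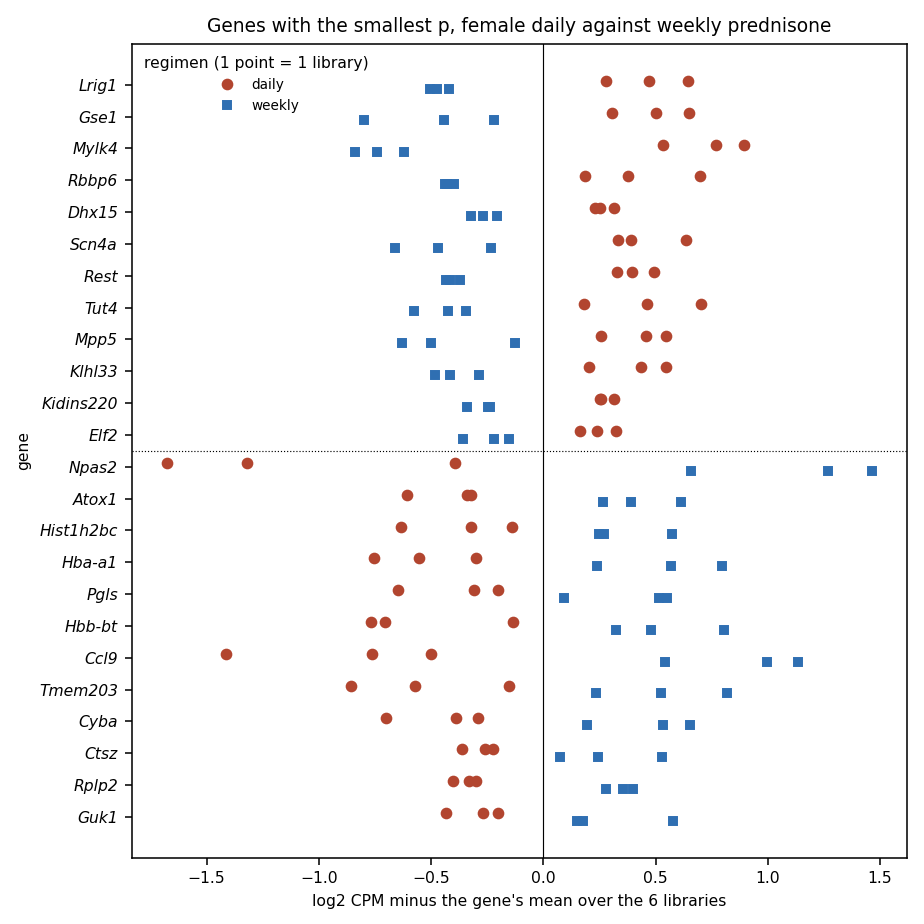
Log2 CPM of each library minus the gene's mean over the 6 libraries (horizontal axis) for the 12 genes higher (above the dotted line) and the 12 lower in daily (below it) with the smallest p, circles for daily and squares for weekly libraries. The genes were chosen by p, so the gap between circles and squares is set by the choice; Npas2 and Ccl9 have the widest spread within the daily group.

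Genes lower in daily with the smallest p included a clock activator, haemoglobins and myeloid genes. Npas2, a partner of Arntl that can stand in for Clock, was at 1.38, 0.565 and 0.723 CPM in daily and 4.34, 4.98 and 2.85 CPM in weekly libraries. It was lower in all 3 daily libraries, by -2.20 ± 0.38 on the log2 scale (edgeR adjusted p = 0.05002, 0.0206 with the block), and vehicle females had 5.75, 4.23 and 4.48 CPM. Ccl9, a chemokine of myeloid cells, was at 2.6, 1.38 and 2.17 CPM in daily and 7.35, 5.36 and 8.08 CPM in weekly libraries (log2 difference -1.76 ± 0.34), with vehicle at 4.4, 1.41 and 3.85 CPM. Cyba, a subunit of the phagocyte NADPH oxidase, differed by -0.92 ± 0.19 and Ctsz, a lysosomal protease, by -0.57 ± 0.12. Hba-a1, an alpha globin, was at 15.4, 21.1 and 17.7 CPM in daily and 30.7, 45.2 and 38.6 CPM in weekly libraries, and the beta globin Hbb-bt at 5.27, 7.84 and 5.06 and 10.8, 15.03 and 12 CPM. The globin copies are near-identical, so reads may be split between them. Atox1, the copper chaperone, differed by -0.85 ± 0.16, Pgls, an enzyme of the pentose phosphate pathway, by -0.78 ± 0.15, Guk1, guanylate kinase, by -0.62 ± 0.13, Tmem203, a calcium-linked membrane protein of the endoplasmic reticulum, by -1.04 ± 0.21, the ribosomal stalk gene Rplp2 by -0.69 ± 0.14 and Hist1h2bc, a member of the histone H2B family with many close copies, by -0.72 ± 0.14. All 12 were called with the block.

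Clock genes differed in both directions. Of 19 genes of the core clock and its output, 13 were higher and 6 lower in daily, daily libraries lay above for 8 and below for 2, and with the block 4 were called higher and 1, Npas2, lower. The median log2 difference of the list was 0.51, beside -0.04 for all genes tested. Among the repressors, Nr1d2 (REV-ERB beta) was at 95.9, 95.03 and 117 CPM in daily and 61.4, 63.8 and 68.8 CPM in weekly libraries (0.67 ± 0.16, edgeR adjusted p = 0.0343 with the block). Ciart, which represses the Clock and Arntl pair, was at 7.26, 10.5 and 9.22 against 0.869, 4.02 and 3.85 CPM (1.65 ± 0.45, blocked adjusted p = 0.0315). Rora, the activator that competes with REV-ERB proteins, was at 74.7, 54.01 and 66.98 against 41.2, 33.4 and 50.6 CPM and was called as well (0.027). Tef, a D-box factor of clock output, was the fourth called higher, at 284, 244 and 258 against 163, 171 and 176 CPM.

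The other clock genes did not pass. Dbp, another D-box factor, was at 73.6, 56.3 and 74.99 CPM in daily and 12.8, 34.7 and 23.7 CPM in weekly libraries (1.53 ± 0.62, edgeR adjusted p = 0.211, 0.196 with the block), while the vehicle libraries ranged from 4.06 to 50.4 CPM. The period genes Per2 and Per3 differed by 1.24 ± 0.56 and 1.10 ± 0.36, and Per1, which is also a direct receptor target, by 0.50 ± 0.36. Cry2, a repressor, was higher in every daily library, by 0.51 ± 0.17, as was Bhlhe41, by 0.81 ± 0.22. The activators Arntl (-0.46 ± 0.38) and Clock (-0.16 ± 0.17) lay on the lower side. So did the repressor Nr1d1 (-0.44 ± 0.28), unlike Nr1d2. Nfil3, a repressor at D-boxes, was lower in every daily library, at 33.2, 23.9 and 25.8 against 52.7, 38.5 and 45.5 CPM, though vehicle libraries spanned 88.3, 64.4 and 27.7 CPM. Without weekly replicate 1, Npas2 was the 1 clock gene that edgeR called with no block.

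**Figure D4:**
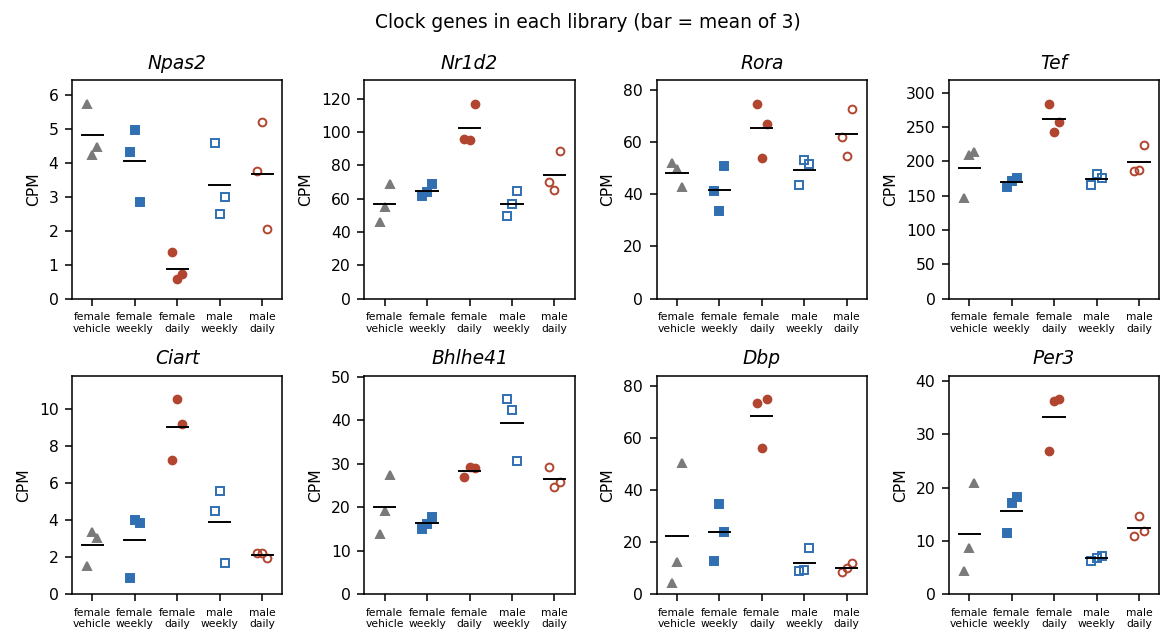
CPM (vertical axes, from 0) of 8 clock genes in each library of female vehicle, female weekly, female daily, male weekly and male daily mice, with a bar at the mean of 3 libraries. Female daily libraries lie apart from female weekly libraries in all 8 panels, which were drawn for that reason, and male daily libraries overlap male weekly libraries for Npas2, Ciart and Dbp.

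Genes of excitation and contraction were mostly higher in daily. Of 20 excitation-contraction coupling and calcium genes, 13 were higher and 7 lower, daily libraries lay above for 8 and below for 1, and 5 were called higher and 0 lower with the block (list median 0.27, and 0.12 without daily replicate 1). Ryr1, the calcium release channel of the sarcoplasmic reticulum, was at 3946, 3368 and 3443 CPM in daily and 2246, 1871 and 1956 CPM in weekly libraries (0.82 ± 0.17, edgeR adjusted p = 0.05899, 0.0209 with the block). Cacna1s, the voltage sensor that gates it, differed by 0.74 ± 0.23 and Stim1, the calcium sensor of store refilling, by 0.48 ± 0.14, both called with the block. Mrln, the myoregulin micropeptide that inhibits the calcium pump, was at 38.4, 19.4 and 28.01 against 35.7, 45.3 and 38.7 CPM and did not pass (-0.48 ± 0.26).

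Fast-fibre and structural genes showed the same side for some members. Of 15 fast-fibre genes, 9 were higher, 4 with daily above in every library, and 2 were called higher with the block. Besides Mylk4 this was Atp2a1, the fast calcium pump SERCA1, at 38110, 28850 and 28380 CPM in daily and 22110, 16740 and 19360 CPM in weekly libraries (0.71 ± 0.19). Myh4, the fastest myosin heavy chain, was higher in every daily library (0.73 ± 0.23, edgeR adjusted p = 0.0639 with the block, not called). The list median was 0.05, since 6 members were lower. Of 10 myofibre markers, 4 were called higher and 0 lower, among them the giant sarcomere protein gene Neb (0.84 ± 0.27) and the dystrophin gene Dmd (0.77 ± 0.21), while Acta1 (0.10 ± 0.24) and Ckm (-0.05 ± 0.21) did not pass. The list median of excitation-contraction coupling was -0.03 for daily against vehicle and -0.24 for weekly against vehicle, comparisons that share the vehicle libraries. Glycogen and glycolysis genes gave 3 of 20 called higher and 0 lower, among them Phka1, a phosphorylase kinase subunit (0.62 ± 0.16), and Hk2, hexokinase 2 (0.54 ± 0.16).

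Nuclear genes of the respiratory chain were lower in daily. Of 36 nuclear subunits of complex I, 35 were lower, 20 had all daily libraries below all weekly ones, and 10 were called lower and 0 higher with the block. Their median log2 difference was -0.49, and the members ranged from -0.81 to 0.27. Ndufa2, an accessory subunit, was at 79.02, 64.1 and 81.2 CPM in daily and 159, 125 and 108 CPM in weekly libraries (-0.81 ± 0.17, edgeR adjusted p = 0.06865, 0.0273 with the block). Of 39 tested subunits of complexes II to V, 37 were lower, 16 without overlap, and 9 were called lower (median -0.44), among them Atp5e of ATP synthase (-0.82 ± 0.19), Uqcr11 of complex III (-0.73 ± 0.18) and Cox8b of complex IV (-0.75 ± 0.20). Without weekly replicate 1 the medians were -0.22 and -0.13, and without weekly replicate 2 they were -0.59 and -0.58. With weekly replicate 1 left out and no block, edgeR called 0 of the 36 and 0 of the 39 genes, with 10 and 6 at an unadjusted p under 0.05. Weekly replicate 1, with its slow-fibre transcripts, had the highest sum of complex I genes, at 7890, 4740 and 5120 CPM in weekly replicates 1, 2 and 3 against 5070, 3920 and 4650 CPM in the daily ones.

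Mitochondrially encoded genes were lower in daily for 13 of 13, with a median of -0.79, and 2 were called lower with the block. The sums were 113000, 155000 and 123000 CPM in daily and 116000, 374000 and 173000 CPM in weekly replicates 1, 2 and 3, so weekly replicate 1 lay at the daily level and weekly replicate 2 far above it. Without weekly replicate 2 the median was -0.15. mt-Co1, a complex IV subunit, was at 40260, 53100 and 42350 CPM in daily and 39290, 132900 and 59500 CPM in weekly libraries and did not pass (-0.77 ± 0.35). The 2 called members, mt-Nd3 (-1.06 ± 0.29) and mt-Co2 (-1.15 ± 0.37), reached at most 15.6 CPM in any of the 6 libraries.

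Ribosomal protein genes lay on the lower side almost throughout. All 47 tested genes of cytosolic ribosomal proteins were lower in daily, from -0.71 to -0.07 with a median of -0.49, daily libraries lay below weekly ones for 35, and 24 were called lower with the block. Rplp2 was at 151, 144 and 154 CPM in daily and 251, 243 and 231 CPM in weekly libraries, and Rps23 at 115, 126 and 114 and 195, 184 and 149 CPM (-0.57 ± 0.13). Leaving out 1 library in turn moved the list median between -0.59 and -0.36, and with weekly replicate 1 left out and no block, edgeR called 1 of the 47, with 33 at an unadjusted p under 0.05. Ribosomal genes have many processed pseudogenes that can share reads with them. Of 36 mitochondrial ribosomal protein genes 35 were lower, 7 without overlap, and 3 were called (median -0.31), led by Mrpl12 (-0.68 ± 0.17). Without weekly replicate 1 and with no block, their median was -0.11 and edgeR called 0, with 5 at an unadjusted p under 0.05.

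Transcript length moved with these lists, which hold short genes. Across all genes, the median log2 difference was -0.121 in the shortest of 4 equal classes of transcripts and 0.089 in the longest, and of the blocked calls 53 were higher and 131 lower in the shortest class against 133 higher and 15 lower in the longest. The libraries shared this unevenly. Median log2 deviations from each gene's mean over all 18 libraries were largest in weekly replicate 1, at 0.126 (shortest) and -0.152 (longest). Weekly replicates 2 and 3 had -0.004 and 0.003 in the shortest class and 0.044 and 0.015 in the longest. Daily replicates 1, 2 and 3 had -0.001, -0.075 and -0.044 in the shortest class and 0.005, 0.128 and 0.084 in the longest. With length and GC trends removed, the medians were -0.37 for complex I, -0.37 for complexes II to V and -0.38 for cytosolic ribosomal proteins, and 8, 4 and 11 members were called lower with the block. In that fit 341 genes passed in all, 212 higher and 129 lower, and 252 of the 507 calls remained. Calls higher in daily went from 5 to 2 for excitation-contraction coupling and from 3 to 1 for glycolysis and glycogen. They went from 2 to 0 for atrophy genes and from 1 to 0 for glucocorticoid receptor targets. The 1 call higher in each of the TCA cycle, lipogenesis, IGF1 and adipocyte lists was lost too. Myofibre markers still had 4 calls higher and fast-fibre genes 2. Calls lower in daily went from 2 to 0 for mitochondrially encoded genes. They went from 1 to 0 for the interferon-stimulated, fibroblast, brown adipocyte and ATF4 lists. The clock list had 4 higher with and without the trends, with Cry2 in place of Nr1d2 once they were removed. The part of transcript length in the list differences was not tested further.

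**Figure D5:**
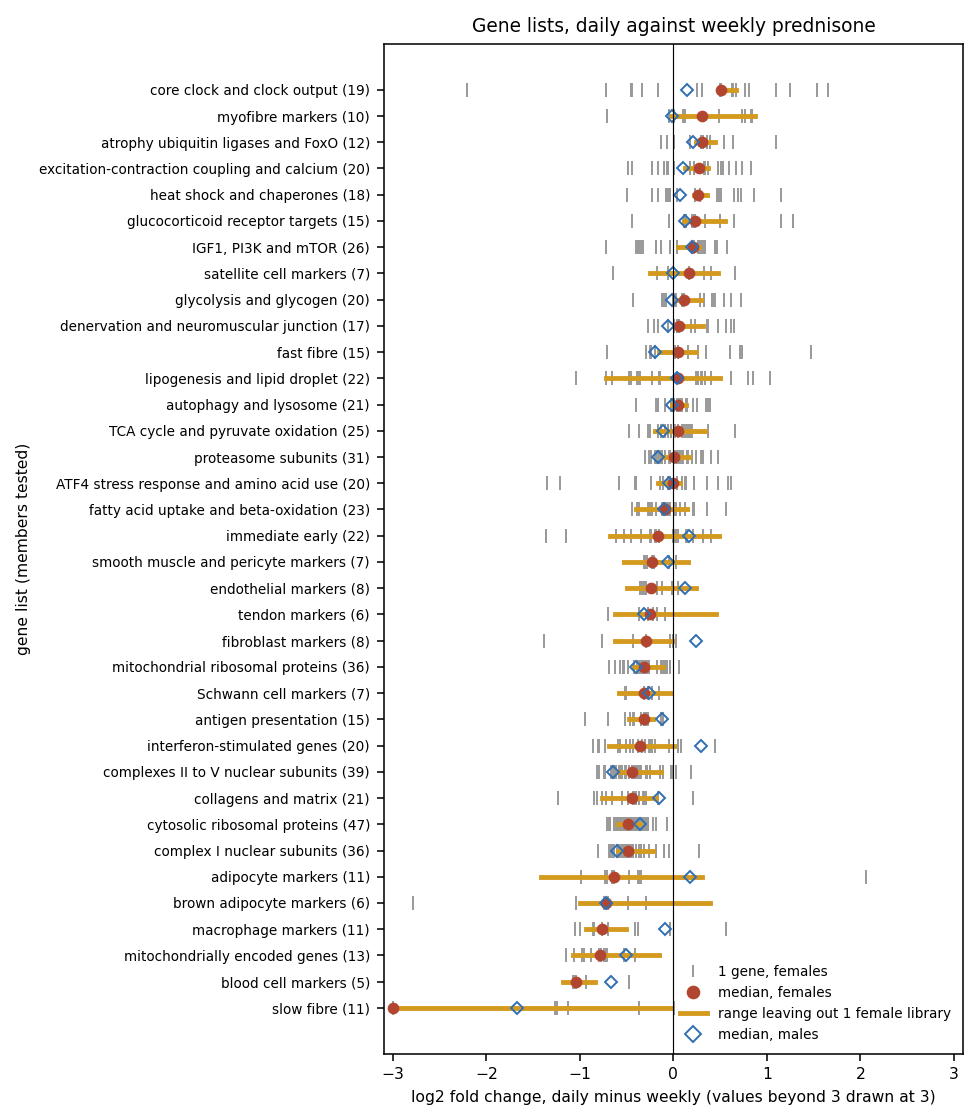
Log2 difference of daily minus weekly (horizontal axis) for the tested members of 36 gene lists, with ticks for single genes and filled circles for list medians in females, bars for the range of the female median when 1 of the 6 libraries is left out, and open diamonds for the medians in males. Ribosomal, respiratory chain and blood lists keep to the left of 0 when any library is left out, the clock list keeps to the right, and the adipocyte and tendon bars cross 0.

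Direct targets of the glucocorticoid receptor were mostly higher in daily, with few calls. Of 15 targets, 13 were higher, 3 without overlap, and 1, Klf9, was called with the block (list median 0.23). Over all genes tested, 46.1% were higher in daily, 10% lay above without overlap and 2.18% were called higher. Without weekly replicate 1 the median was 0.11, and without weekly replicate 3 it was 0.55. Klf9, a Krüppel-like repressor that is an immediate receptor target, was at 149, 144 and 129 CPM in daily and 67.3, 91.5 and 111 CPM in weekly libraries (0.65 ± 0.18, blocked edgeR adjusted p = 0.0481). With length and GC trends removed as well, Klf9 did not pass (blocked edgeR adjusted p = 0.0709). Fkbp5, the co-chaperone that limits receptor signalling, was at 133, 132 and 83.5 CPM in daily and 39.4, 33.1 and 70.7 CPM in weekly libraries and was not called (1.28 ± 0.42, 0.129). Vehicle females had 121, 105 and 25.8 CPM of Fkbp5. Zbtb16 differed by 0.49 ± 0.21, Tsc22d3 (GILZ) by 0.22 ± 0.21, Klf15 by 0.11 ± 0.25 and Lcn2, lipocalin 2, by 1.15 ± 0.34, with 13.9 CPM in daily replicate 2 and at most 5.18 CPM in the other 5 libraries.

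Atrophy genes gave 2 calls among 12, both higher in daily. Neither passed with length and GC trends removed as well (blocked edgeR adjusted p = 0.0895 for Mstn and 0.142 for Fbxo30). Mstn, the myostatin gene that limits muscle mass, was at 74.9, 48.6 and 51.7 CPM in daily and 25.6, 20.2 and 35.9 CPM in weekly libraries (1.10 ± 0.25, edgeR adjusted p = 0.06865, 0.031 with the block). Fbxo30, the ubiquitin ligase MUSA1, was called as well (0.54 ± 0.19, 0.031). The ligases most used as markers of atrophy overlapped between the groups. Trim63 (MuRF1) was at 670.5, 467 and 292 CPM in daily and 239, 202 and 479.7 CPM in weekly libraries (0.63 ± 0.52), and Fbxo32 (atrogin-1) at 706, 402 and 278 and 387, 249 and 494 CPM (0.29 ± 0.43). Foxo1, their activator, differed by 0.18 ± 0.27. In the IGF1, PI3K and mTOR list, 16 of 26 were higher, 7 without overlap, and 1 was called, Tsc1, a brake on mTOR (0.58 ± 0.16). The same shares over all genes were 46.1%, 10% and 2.18%. The list median was 0.21, 0.05 without weekly replicate 1 and 0.08 with length and GC trends removed.

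Lipid and fuel genes were divided. Of 23 genes of fatty acid uptake and beta-oxidation 15 were lower and 0 were called, with a median of -0.09, and of 25 genes of the TCA cycle and pyruvate oxidation 1 was called, Pdp1, the phosphatase that activates pyruvate dehydrogenase, at 30.9, 26.1 and 29.8 CPM in daily and 25.9, 12.8 and 15.8 CPM in weekly libraries. Pdk4, which opposes it, overlapped between the groups, at 1535, 1414 and 613 and 1430, 389.8 and 1340 CPM (0.17 ± 0.53). Gpam, the first enzyme of triglyceride synthesis, was the 1 call among 22 lipogenesis and lipid droplet genes (0.85 ± 0.28, blocked edgeR adjusted p = 0.0485), and the droplet coat gene Plin4 was at 648, 705 and 702 against 405, 216 and 561 CPM. Plb1, a phospholipase, was low in both groups, at 0.535, 0.565 and 0.482 and 1.54, 1.34 and 1.15 CPM, and was called lower (-1.34 ± 0.32).

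Adipocyte markers varied more between libraries than between regimens. Their sums were 2540, 2910 and 6400 CPM in daily and 7180, 1760 and 8530 CPM in weekly replicates 1, 2 and 3. Of 11 markers 10 were lower in daily and 0 of them was called, and the list median moved from -0.64 to 0.31 without weekly replicate 3 and to -1.42 without daily replicate 3. Lep, the leptin gene, went the other way, at 2.83, 5.27 and 18.2 CPM in daily and 1.4, 0.957 and 3.92 CPM in weekly libraries, and was called higher with the block (2.06 ± 0.71, edgeR adjusted p = 0.1497, 0.0475 with the block). Vehicle females had 0.339, 0 and 0.448 CPM. Lep did not pass once length and GC trends were removed as well (blocked edgeR adjusted p = 0.0553). Ucp1, the uncoupling protein of brown fat, was at 0.535, 20.5 and 26.6 CPM in daily and 23.6, 0 and 307 CPM in weekly libraries, so weekly replicate 3 holds most of its group total. Of the 6 brown fat markers tested, 6 were lower and 1, Cox8b, was called. Cox8b is the complex IV gene already counted among the respiratory chain calls.

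Markers of macrophages and blood were lower in daily, with sums that did not overlap between the regimens. The 12 macrophage markers summed to 72.5, 60.2 and 76.1 CPM in daily and 107, 94.4 and 121 CPM in weekly replicates 1, 2 and 3, and to 79.9, 40.9 and 74.4 CPM in vehicle. Of 11 tested, 10 were lower, 6 without overlap, and 2 were called with the block (median -0.76). C1qa, a subunit of complement C1q, was at 5.04, 3.58 and 7.71 CPM in daily and 10.6, 9 and 14.2 CPM in weekly libraries (-1.05 ± 0.24, blocked edgeR adjusted p = 0.0206), and C1qb was the other call (-1.001 ± 0.27). Lyz2, lysozyme, was at 27.4, 20.9 and 22.9 against 40.5, 39.9 and 40.5 CPM and did not pass. The marker Cd68 lay on the other side, at 3.44, 7.4 and 4.22 and 2.81, 3.83 and 3.62 CPM. In bulk libraries, fewer cells of a type and less RNA per cell cannot be told apart.

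The 7 blood cell markers summed to 67.8, 88.4 and 70.8 CPM in daily and 126, 174 and 149 CPM in weekly libraries, and to 142, 96.4 and 175 CPM in vehicle. The 4 globin genes were the 4 called with the block, all lower, with Hbb-bs at 35.2, 41.1 and 34.4 against 62.2, 79.1 and 69.9 CPM (-0.93 ± 0.21). Alas2, the haem synthesis enzyme of red cells, was the fifth tested and overlapped between the groups (-0.47 ± 0.34). With weekly replicate 1 left out and no block, edgeR called 4 of the 5.

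Other cell type and matrix lists gave few calls, and all but the satellite cell list had medians below 0. The medians were -0.44 for 21 collagen and matrix genes, -0.29 for 8 fibroblast markers, -0.24 for 8 endothelial, -0.32 for 7 Schwann cell, -0.23 for 7 smooth muscle and pericyte, -0.25 for 6 tendon and 0.17 for 7 satellite cell markers. Leaving out 1 library moved the matrix median between -0.76 (without daily replicate 3) and -0.19 (without weekly replicate 2). It moved the fibroblast median between -0.62 (without daily replicate 3) and -0.02 (without daily replicate 1), the Schwann cell median between -0.58 (without daily replicate 2) and -0.03 (without weekly replicate 2) and the satellite cell median between -0.25 (without weekly replicate 1) and 0.48 (without weekly replicate 2). Without weekly replicate 2, which had the highest sums of endothelial, smooth muscle and tendon markers, the medians were 0.24 for endothelial, 0.16 for smooth muscle and 0.46 for tendon markers. The 1 call among these lists was Pi16, a gene of adventitial fibroblasts, at 17.4, 22.3 and 21.1 CPM in daily, 37.4, 75.8 and 45.8 CPM in weekly and 26.2, 11.6 and 25.8 CPM in vehicle libraries (-1.38 ± 0.35, blocked edgeR adjusted p = 0.0471). Interferon-stimulated genes had 17 of 20 lower (median -0.36), with 1 called, Bst2 (-0.73 ± 0.23), and antigen presentation genes 15 of 15 lower (median -0.32), 4 without overlap, with 0 called by edgeR with the block and 4 at an unadjusted p under 0.05 without it. Both medians lay closer to 0 without weekly replicate 2 (interferon-stimulated, 0.01) or without weekly replicate 3 (antigen presentation, -0.22).

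Stress and turnover lists gave few calls. The proteasome median was 0.01 with 1 of 31 called, Psmd1 (0.47 ± 0.15), and that of autophagy and lysosome genes was 0.05 with 0 of 21 called by edgeR with the block and 2 at an unadjusted p under 0.05 without it. In the ATF4 list, 1 gene was called on each side, Gpt2, an alanine aminotransferase, higher (0.61 ± 0.15) and Trib3, a pseudokinase induced by ATF4, lower (-1.35 ± 0.33). Chaperone genes had a median of 0.26 with 11 of 18 higher and 0 called, and 3 had an unadjusted p under 0.05. Of 17 denervation and neuromuscular junction genes, 13 were higher and 0 were called, with 2 under that p. Immediate early genes split by library, with sums of 2660, 9080 and 7630 CPM in daily and 1260, 11600 and 8070 CPM in weekly replicates 1, 2 and 3, so that replicate 1 was lowest in both groups. None of the 22 was called by edgeR, with 0 at an unadjusted p under 0.05.

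Among the 5 named genes with the largest log2 differences on each side, some rested on single libraries. On the lower side all 5 were slow-fibre genes, with Myh7, the slow myosin heavy chain, at 2.22, 5.02 and 4.28 CPM in daily and 666, 0.862 and 6.84 CPM in weekly libraries (-5.86 ± 2.08, edgeR adjusted p = 0.1664). Without weekly replicate 1 the slow-fibre list median was -0.03 instead of -3.41, and 0 of its 11 genes were called by edgeR with the block (8 at an unadjusted p under 0.05 without it). On the higher side, Odf3l2, of a family named for sperm tail fibres, was at 47.2, 112 and 31.4 CPM in daily and 9.22, 6.61 and 13.9 CPM in weekly libraries, above in every library (2.68 ± 0.61, blocked adjusted p = 0.0613). Otog, the otogelin gene, was called higher with the block (1.97 ± 0.50). It did not pass once length and GC trends were removed as well (blocked edgeR adjusted p = 0.0521). Cyp1a1, a target of the aryl hydrocarbon receptor, reached 9.79 CPM in daily replicate 2 and at most 2.07 CPM in the other 5 libraries, and Mir17hg, host of a microRNA cluster, was at 1.07, 7.46 and 4.64 against 1.002, 1.25 and 1.46 CPM.

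Male mice gave differences on the same side for most of these genes. The difference of daily minus weekly in females against that in males was tested as an interaction, and 0 of 13226 genes passed (0% called, edgeR, smallest adjusted p = 0.141), with 482 genes, 3.64%, at an unadjusted p under 0.05. DESeq2 called 3, Pi16, Npas2 and the myeloid lectin gene Cd209f. In males alone 0 genes passed (smallest adjusted p = 0.0633) and 13.5% of genes had an unadjusted p under 0.05. The log2 differences of both sexes, which share no library, correlated across the 13226 genes with a Pearson r of 0.423, given as a description because genes are not independent. Of the 2366 female genes at an unadjusted p under 0.05, 87.6% had the same sign in males, beside 67.2% of all genes, and of the 507 called genes 464 did. Males had a like trend with transcript length, with a median of -0.092 in the shortest class and 0.113 in the longest. The part of that trend in the agreement between the sexes was not tested.

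Single genes showed which parts were alike and which were apart. Rbbp6 differed by 0.85 ± 0.15 in males and 0.86 ± 0.15 in females, Gse1 by 0.71 ± 0.15 and 0.96 ± 0.15, and complex I genes had a male median of -0.60 beside the female -0.49. Mylk4 differed by 0.36 ± 0.25 in males, with an unadjusted interaction p of 0.00577 (edgeR, adjusted 0.999). Npas2 was at 3.75, 5.22 and 2.05 CPM in male daily and 4.58, 2.5 and 2.996 CPM in male weekly libraries, which overlap. Its male log2 difference was 0.15 ± 0.34, and the interaction had an unadjusted p of 0.000285 (edgeR adjusted p = 0.923). Bhlhe41 was lower in male daily mice, at 29.1, 24.5 and 25.8 against 44.8, 42.4 and 30.5 CPM (-0.56 ± 0.21), the opposite side of the female difference. The interaction for Bhlhe41 had an edgeR adjusted p of 0.923 (unadjusted 0.00036). Ciart, called higher in daily females, was on the lower side in daily males (-0.85 ± 0.48), with an unadjusted interaction p of 0.00151 (edgeR). The clock list had a male median of 0.15. C1qa and Pi16 were lower in daily females and not in males, at 0.36 ± 0.25 and 0.88 ± 0.35 in males, with adjusted interaction p values of 0.999 and 0.923 (edgeR). The male macrophage median was -0.09. None of these interaction values passed the adjusted threshold in edgeR.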

How the data were processed

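Whole-number read counts per gene were deposited by the authors, who aligned polyA RNA reads to mm10 and counted them per gene without normalization. The submitters' processing notes name TopHat2 2.1.0, Bowtie2 2.2.6 and HTSeq, and the strand setting and the annotation release are not given in the sources used here, so overlapping genes, antisense genes and near-identical copies are uncertain. Symbols were found for 42462 of the 43430 identifiers, the unmatched ones held no more than 0.0814% of any library, and 0 columns of per-sample values were left out. The notes name mm9 beside mm10, and the table's coordinates are those of mm10.

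Groups followed the labels. Genes with at least 10 counts in at least 3 of the 6 female daily and weekly libraries were scaled with TMM factors and fitted with 6 group means over all 18 libraries by a robust quasi-likelihood test (edgeR 4.0.16, R 4.3.3). Benjamini-Hochberg adjustment ran over the 13226 genes, with calls under 0.05. The SE is the log2 fold change divided by the root of its F statistic, with a prior count of 2 for log2 CPM. The study's captions give 3 animals per group, while the labels do not name the mouse behind each library. Counting limits and intervals, where depth sets them, cover counting error only. Replicates 1, 2 and 3 of daily and weekly females had deviations from their group means that correlated with r = 0.54, 0.53 and 0.49, each pair being above 0.1, so the number was taken to pair these libraries. Unlike-numbered pairs had r of -0.59 to 0.13, so daily replicate 2 with weekly replicate 3 (0.13) was above 0.1 too. Deviations of 3 libraries from their own mean are not independent, so these values cannot establish a pairing. The labels do not state what the replicate number marks, and the numbers after the regimen letter in the count columns' names differ within each pair. In males the same-numbered values were 0.13, -0.32 and 0.24. No 2 replicates of a group agreed within sampling noise (chi-square per degree of freedom of at least 23.0). Length and GC trends were natural splines with 5 degrees of freedom on the median transcript length and GC of GENCODE M21. They were added after the data were seen. The fit without the block was run on simulated data, while the block and the removal of trends were not.

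Named genes were the 12 with the smallest p in each direction and the 5 with the largest fold change in each direction at an unadjusted p under 0.05, with a mean of at least 1 CPM and passing over unnamed gene models, the 3 with the smallest p of each of 37 lists, and 16 genes fixed by name. Further members of the clock list, mt-Co1, Cd68, Alas2, Hbb-bs, Acta1, Ckm and Cd209f were named after their values were seen. The members and lists were chosen with earlier results of these data known. Alternatives were DESeq2 (1.42.0) and its size factors, limma-voom (limma 3.58.1), other filters, a fit restricted to the groups compared, the replicate block, an adipocyte score as covariate, length and GC trends removed, and leaving out each library or pair.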

Additional observations from a re-analysis of the deposited data

Results flagged for a closer look

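Pi16 was lower in all 3 daily than in all 3 weekly female libraries (log2 difference -1.38) and higher in all 3 daily than in all 3 weekly male libraries (0.88). The difference between the sexes was -2.26 on the log2 scale (edgeR unadjusted p = 0.000331, adjusted p = 0.923). Bhlhe41 showed the opposite arrangement, at 0.81 in females and -0.56 in males, again without overlap in either sex, with a sex difference of 1.37 (edgeR unadjusted p = 0.00036, adjusted p = 0.923). Cd209f, at most 2.31 CPM in the 6 female libraries, differed by -1.30 in females and 2.1 in males, a sex difference of -3.40 (edgeR unadjusted p = 1.07e-05, adjusted p = 0.141). None of the 3 passed the adjusted threshold in edgeR, and these genes were singled out after their values were seen.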

How the results depend on the processing

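The count of 0 genes between daily and weekly females became 554 with DESeq2, 2 with limma-voom (Lrig1 and Gse1), 18 with no filter on low counts, 46 with a filter of 50 counts, 27 with the adipocyte score as covariate and 29 with length and GC trends removed. With the replicate block it was 507 over all groups, 341 after both the block and the trend correction, and 2 (Egr4 and an unnamed gene model, chosen after their values were seen) in the fit of the compared groups alone. It stayed 0 with DESeq2 size factors, with filterByExpr and in the unpaired fit of the compared groups alone, where the smallest adjusted p was 0.531. Leaving out 1 library gave 0 to 293 genes, the highest without weekly replicate 1, and leaving out a pair with the block gave 0 to 14. The sex difference stayed at 0 genes in every alternative except DESeq2, which called 3. The replicate block changed the call of the genes named as called, and of no gene in the sex difference. The cause of these shifts was not tested.

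Of 164 named genes, 142 kept their direction in all alternatives, and 22 reversed in 40 of 3431 values. Ckm was 0.05 with length and GC trends removed, and 0.04 with the block as well. Leaving out 1 female library gave ranges of Myl2 from -4.38 to 0.36, Ucp1 from -3.34 to 0.41, Emcn from -0.67 to 0.16, Tek from -0.63 to 0.14, Acta2 from -0.64 to 0.07, Pdgfrb from -0.63 to 0.15, Rgs5 from -0.60 to 0.33, Pax7 from -1.04 to 0.06, Thbs4 from -0.76 to 0.37, Fmod from -0.66 to 0.56, Fbxo32 from -0.15 to 0.57, Klf15 from -0.06 to 0.26, Foxo1 from -0.03 to 0.49, Pdk4 from -0.20 to 0.50, Clock from -0.32 to 0.05, Acta1 from -0.23 to 0.31 and Ckm from -0.27 to 0.11. With the block and without pair 1, Myh7 was 0.50, Tnni1 0.04, Tnnc1 0.27, Myl2 0.81, Cfd 0.10, Fbxo32 -0.07 and Acta1 -0.02. Without pair 2, Pdgfrb was 0.08, Rgs5 0.03, Pax7 0.27, Thbs4 0.17, Fmod 0.22, Pdk4 -0.51, Bhlhe40 0.07 and Ckm 0.07. Without pair 3, Clock was 0.08.

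Of 756 list medians, 737 moved by less than the spread between replicates. The slow-fibre median was -1.29 with the filter of 50 counts, -1.18 with the block, -1.14 with the block in the compared groups alone, -1.12 with the block and trends removed, and -3.95 to 0.36 when libraries or pairs were left out. The IGF1, PI3K and mTOR median was 0.08 with trends removed, with or without the block, and 0.05 to 0.27 with libraries left out (0.09 without pair 1). Over the same omissions the clock median ranged from 0.50 to 0.67 (0.66 without pair 3), the mitochondrially encoded median from -1.07 to -0.15, the chaperone median from 0.10 to 0.42, the denervation median from 0.04 to 0.32 and the myofibre median from -0.02 to 0.87 (0.69 without pair 1).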
